A study of Mus musculus with 6 samples.

Results

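The genes that hold the cell cycle at its first checkpoint, the cyclin-dependent kinase (CDK) inhibitors, were followed together with p53 and its best-known targets in mdx myoblasts treated with PSB-KD107 or with vehicle. The 10 genes were taken by symbol from the 47069 rows of the count table: the inhibitors Cdkn1a, Cdkn1b, Cdkn1c, Cdkn2a, Cdkn2b and Cdkn2c, the tumor suppressor Trp53, its targets Mdm2 and Ccng1, and the cyclin gene Ccnd1. All 10 of the 10 passed the filter on low counts, which left 14165 genes for testing.

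The cells were muscle stem cells of mdx mice, which lack dystrophin and model Duchenne muscular dystrophy. Every sample of both groups carries that defect, so that no comparison with healthy cells can be made. According to the methods they were sorted as positive for Itga7 and Itgb1 and negative for Sca-1, CD45, CD31 and CD11b, and were grown as myoblasts in Ham's F10 medium with 20% fetal bovine serum and FGF2. The first group of 3 libraries received vehicle (DMSO in aqueous buffer in the study's cell cultures, while 1 label calls the controls untreated), and the second group of 3 libraries received 10 μM PSB-KD107, a small molecule that activates the lipid receptor Gpr18. The treatment lasted 2 days in the sample records and 16 h in the methods. The cells came from 3 different mice, and the methods do not say whether that means 3 in all or 3 per group. With 3 in all, the libraries of both groups could not all come from separate animals. The methods describe male mdx mice on the C57BL/10 background, 10 weeks old, for the experiments in animals, and do not say whether the cells came from mice of that age and sex or whether a mouse gave cells to both groups. Libraries are named here by the numbers of the table's columns, which are 1, 2 and 4 in both groups.

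CDK inhibitors fall into 2 families. Members of the CIP/KIP family (p21 from Cdkn1a, p27 from Cdkn1b, p57 from Cdkn1c) bind complexes of cyclins with several CDKs, whereas members of the INK4 family (p16 from Cdkn2a, p15 from Cdkn2b, p18 from Cdkn2c) bind Cdk4 and Cdk6 and keep D-type cyclins from activating them. p53 switches on Cdkn1a, Mdm2 and Ccng1, and Mdm2 in turn marks p53 for degradation. In skeletal muscle, p21, p57 and the pocket protein Rb1 are known for their part in the withdrawal of myoblasts from the cell cycle as they differentiate.

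The bases before a start site are shown for 3 members, because 2 of them hold the best matches to the p53 consensus among the members and the other belongs to the inhibitor gene with the largest difference in excess of its error. The windows hold the 250 bases before a start site in RefSeq (GRCm38.p6), written 5′ to 3′ on the strand of the gene. RefSeq gave 11 windows for 8 members, and Cdkn1c and Ccnd1 had no entry. In Cdkn1a the window is chr17:29090729-29090978 on the plus strand, before the upstream one of its 2 starts, and the capitals mark the match to the p53 consensus. In Ccng1 it is chr11:40755287-40755536 on the minus strand, with the same marking. In Cdkn2b it is chr4:89311033-89311282 on the minus strand, and there the capitals mark TGACGTCA, the cyclic AMP response element, which was searched for after the sequence had been seen.
Cdkn1a: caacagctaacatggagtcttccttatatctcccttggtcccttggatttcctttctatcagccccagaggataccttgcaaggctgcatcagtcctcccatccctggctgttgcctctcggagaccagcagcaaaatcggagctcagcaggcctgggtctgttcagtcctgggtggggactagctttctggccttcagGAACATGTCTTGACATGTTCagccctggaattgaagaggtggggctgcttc
Ccng1: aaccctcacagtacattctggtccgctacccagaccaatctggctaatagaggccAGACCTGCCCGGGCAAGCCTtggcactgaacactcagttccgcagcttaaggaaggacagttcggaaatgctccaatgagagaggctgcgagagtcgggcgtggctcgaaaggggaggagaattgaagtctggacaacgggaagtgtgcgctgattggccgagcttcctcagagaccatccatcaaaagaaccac
Cdkn2b: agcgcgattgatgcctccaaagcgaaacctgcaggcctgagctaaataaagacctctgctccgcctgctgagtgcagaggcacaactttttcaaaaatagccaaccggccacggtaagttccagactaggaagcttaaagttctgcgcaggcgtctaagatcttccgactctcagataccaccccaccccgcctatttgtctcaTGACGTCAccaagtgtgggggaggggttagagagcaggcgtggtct

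The p53 consensus is made of a pair of 10-base repeats, and it is its own reverse complement, so that a search of the printed strand covers both. The best match of Cdkn1a, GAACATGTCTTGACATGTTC, departed from it at 1 base and ended 31 bases before the start. That of Ccng1, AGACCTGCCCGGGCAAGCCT, also departed at 1 base and ended 175 bases before the start. A match with at most 1 mismatch was found in 25 of 32841 promoter windows, or 0.0761%. The other windows of the members departed from the consensus at 3 or more bases, with 5 mismatches in Cdkn2b and in Mdm2. The letters TGACGTCA, also their own reverse complement, ended 38 bases before the start of Cdkn2b, were in none of the other windows of the members and were in 1.55% of all windows. These are matches of letters in a short window and say nothing about what binds there.

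The libraries held between 30917613 and 48756794 counts, so that a gene with 3 counts lies at 0.0596 to 0.0962 CPM, depending on the library, a limit that covers counting error only. CPM stands for the count scaled to the normalized library total. Myogenic markers, among them Pax7, Myod1, Myog and Des, were present in every library (0 of 9 at 0 throughout), with a summed level of 10212 to 10631 CPM in vehicle and 9120 to 9941 CPM in PSB-KD107. The summed markers of fibro-adipogenic, endothelial, leukocyte and glial cells stayed at or below 10.6 CPM in every library, and Tie1, Emcn and Adgre1 had no count in any. The value of 10.6 CPM was the fibro-adipogenic sum of PSB-KD107 library 4. Most of it came from Ly6a, at 8.36 CPM there and between 0.155 and 1.29 CPM in the other libraries. All 4 tested fibro-adipogenic markers were higher in PSB-KD107, with groups that overlapped, and edgeR and DESeq2 called 0. The markers of smooth muscle and pericytes summed to 2041 to 3147 CPM and 1214 to 3971 CPM, nearly all from Acta2, which myoblasts also express. Pax7, the defining marker of the labelled cell type, was at 68.8, 49.9 and 60 CPM in vehicle and at 34.0, 26.8 and 35.1 CPM in PSB-KD107. Its level was 0.537 times that of vehicle, without overlap (DESeq2, adjusted p = 0.00181, and edgeR, adjusted p = 0.209). Of the 9 myogenic markers, 3 were higher in PSB-KD107 and 6 were lower, and DESeq2 called Pax7 alone. The 3 higher myogenic markers were Myf5, Itgb1 and Des, at 1.66, 1.23 and 1.11 times the vehicle level, with groups that overlapped. Mcam, listed for pericytes, was at 23.8, 26.1 and 32.2 CPM and at 12.9, 15.2 and 8.45 CPM, 0.446 times the vehicle level and also without overlap (DESeq2, adjusted p = 0.00234, and edgeR, adjusted p = 0.249). Of the 3 tested markers of its list, 2 were higher in PSB-KD107 and 1 was lower, and DESeq2 called Mcam alone. The higher ones, Rgs5 and Acta2, were at 1.27 and 1.05 times the vehicle level, with groups that overlapped. The part of these markers in the values of the 10 genes was not tested. The differentiation genes Myog and Myh3 stood far above Pax7, at 1175 CPM or more and 11842 CPM or more in every library.

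Across the table, edgeR's quasi-likelihood test with Benjamini-Hochberg adjustment called 0 of 14165 genes at an adjusted p of 0.05, that is 0%, with 1331 genes (9.4%) at an unadjusted p under 0.05. limma-voom also called 0, and DESeq2 called 410 of 13829 genes, or 2.96%. Of the 10 members, edgeR called 0, 1 was at an unadjusted p under 0.05 and DESeq2 called 1, in each case Cdkn2b and in each case higher in PSB-KD107. At that unadjusted threshold, 6.47% of all genes tested were higher and 2.93% were lower, and DESeq2 called 2.25% higher and 0.716% lower. Fold changes were positive in 6 members and negative in 4. Their median was 0.01 on the log2 scale, against -0.00074 over all genes tested. The libraries of the groups did not overlap in 2 of 10 members (Cdkn2b higher and Trp53 lower) and in 15.8% of all genes tested, 9.2% higher and 6.59% lower.

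**Figure D1:**
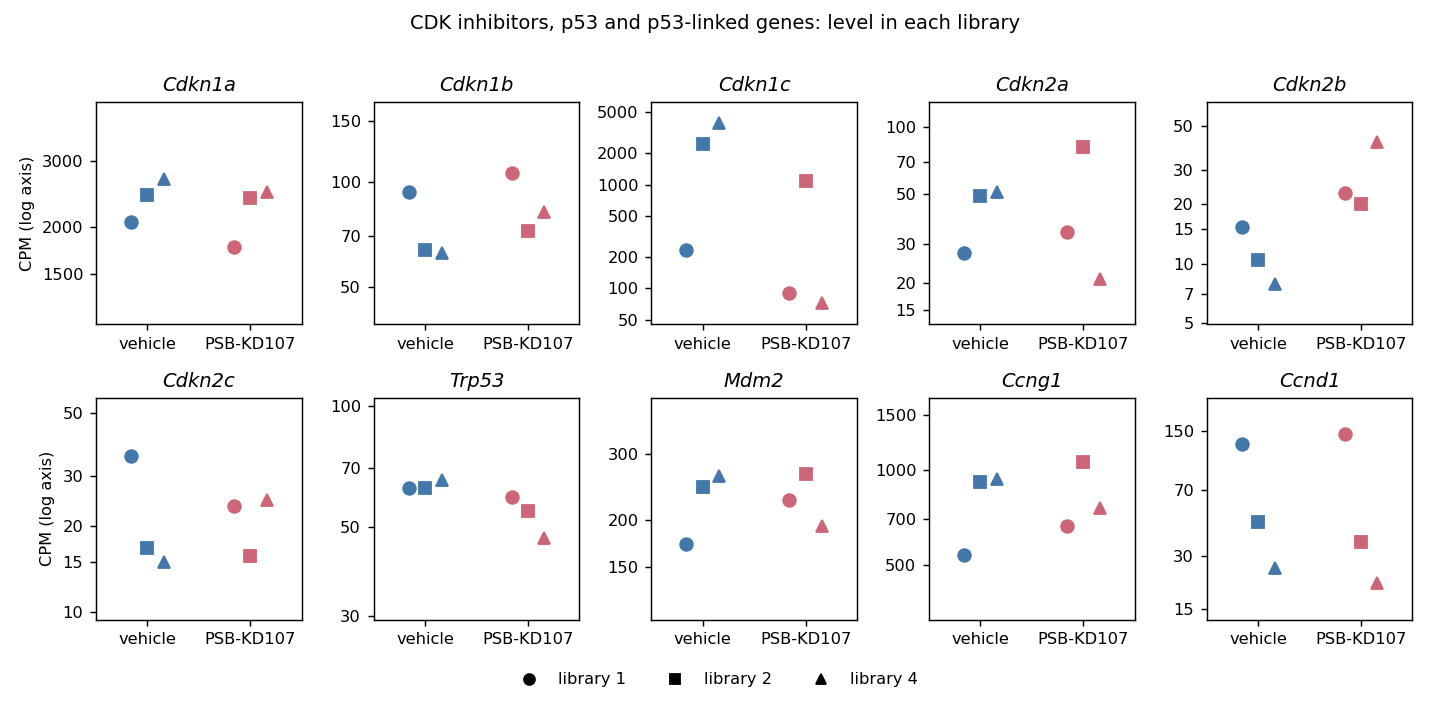
Level of the 10 genes in each library, in CPM on a log axis, with 1 point per library, vehicle in blue and PSB-KD107 in red, and a marker shape for each library number. Only the panels of Cdkn2b and Trp53 show groups that do not overlap, and the panel of Cdkn1c spans 72.2 to 3889 CPM.

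The CIP/KIP gene Cdkn1a (ENSMUSG00000023067, chr17:29090976-29100727 on the plus strand of GRCm38) was among the most abundant of the members. The spread of Cdkn1a within groups was 0.23 (SD of log2 CPM), which 56.6% of the genes tested exceeded. Its level was 2058, 2439 and 2685 CPM in the vehicle libraries and 1767, 2383 and 2477 CPM in the PSB-KD107 libraries. The groups overlapped, and library 1 was the lowest of each. The means were 2394 ± 316 and 2209 ± 386 CPM (SD, n = 3 per group), and the log2 fold change was -0.12 with a standard error of 0.19 and a 95% interval of -0.57 to 0.33 (edgeR, adjusted p = 0.871). As in any bulk sample, here and below, fewer cells of a kind cannot be told apart from less RNA per cell.

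Cdkn1b (ENSMUSG00000003031, chr6:134920401-134925513, plus strand), which codes for p27, was at 93.3, 63.8 and 62.4 CPM in vehicle and at 106, 72.2 and 81.9 CPM in PSB-KD107. In both groups library 1 was the highest, and the groups overlapped. Its log2 fold change was 0.24 ± 0.22 (SE), with a 95% interval of -0.28 to 0.77 (edgeR, adjusted p = 0.77).

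Cdkn1c (ENSMUSG00000037664, chr7:143458339-143461050, minus strand), an imprinted gene that codes for p57, spread over libraries more than the other members. It was counted 9110, 86511 and 125375 times in the vehicle libraries, or 232, 2478 and 3889 CPM, and 4499, 33857 and 2626 times in the PSB-KD107 libraries, or 89.4, 1086 and 72.2 CPM. Vehicle libraries 2 and 4 and PSB-KD107 library 2 were high, the other 3 were low, and the highest was 53.8 times the lowest. Within vehicle alone the highest was 16.7 times the lowest, and within PSB-KD107 alone 15 times. The spread within groups was 2.18 (SD of log2 CPM), a value that 0.607% of the genes tested exceeded.

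The log2 fold change of Cdkn1c was -2.40 ± 1.40 (SE), with a 95% interval of -5.80 to 0.99 (edgeR, adjusted p = 0.657, and DESeq2, adjusted p = 0.533). PSB-KD107 library 2 set much of that value. Without it the fold change was -4.77, with an adjusted p of 0.314 in edgeR and 0.00472 in DESeq2, and without vehicle library 4 it was -1.71 in edgeR. Without both libraries numbered 4 it was -1.21 ± 1.61 (SE). The tetraspanin gene Cd82, from the list of p53 targets, was picked after its values were seen because it was high and low in the same libraries as Cdkn1c. Its levels were 145, 662 and 758 CPM in vehicle and 93.0, 434 and 114 CPM in PSB-KD107, and its log2 fold change was -1.29 ± 0.82 (SE) (edgeR, adjusted p = 0.681).

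**Figure D2:**
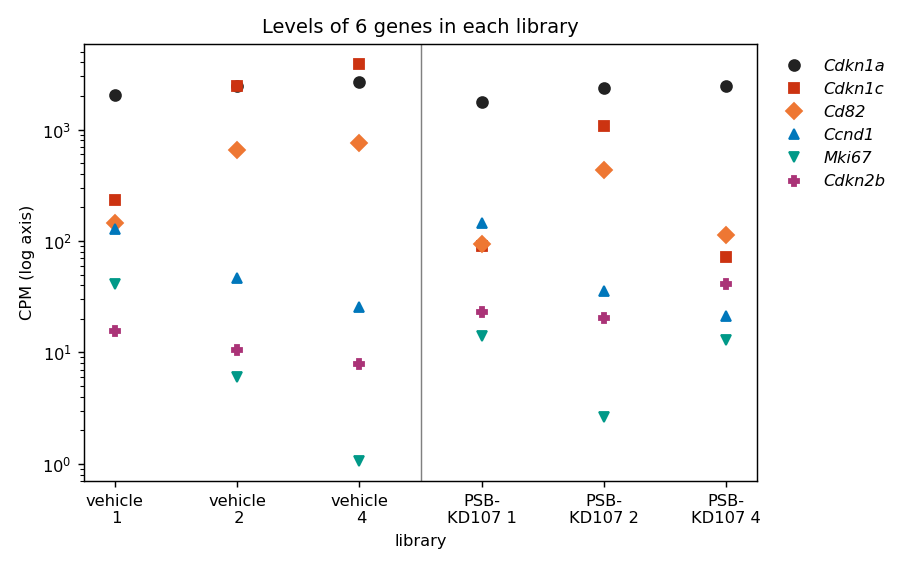
Level of Cdkn1a, Cdkn1c, Cd82, Ccnd1, Mki67 and Cdkn2b in each of the 6 libraries, in CPM on a log axis, with 1 point per gene and library. Cdkn1c and Cd82 are high in vehicle libraries 2 and 4 and in PSB-KD107 library 2, Ccnd1 is high in both libraries numbered 1, and Cdkn1a stays between 1767 and 2685 CPM.

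The INK4 gene Cdkn2b (ENSMUSG00000073802, chr4:89306299-89311039, minus strand), which codes for p15, was the member with the clearest difference. It was counted 602, 365 and 255 times in vehicle, which is 15.4, 10.5 and 7.91 CPM, and 1145, 629 and 1501 times in PSB-KD107, which is 22.8, 20.2 and 41.3 CPM. All 3 libraries of PSB-KD107 lay above all 3 of vehicle, and library 4 was the lowest of vehicle and the highest of PSB-KD107. The means were 11.2 ± 3.79 and 28.1 ± 11.5 CPM (SD, n = 3 per group), a level 2.5 times that of vehicle.

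The log2 fold change of Cdkn2b was 1.32 ± 0.37 (SE), with a 95% interval of 0.42 to 2.22. edgeR gave an unadjusted p of 0.0111 and an adjusted p of 0.361, which does not pass the threshold, whereas DESeq2 gave an adjusted p of 0.0288. A two-sided exact permutation test over the libraries gave p = 0.1, the smallest value that 3 against 3 libraries allow. The DESeq2 call was lost without vehicle library 2 (adjusted p = 0.306), vehicle library 4 (0.337), PSB-KD107 library 1 (0.0644) or PSB-KD107 library 4 (0.0984), and it stayed without vehicle library 1 (0.00395) or PSB-KD107 library 2 (0.0117). The log2 fold change in edgeR ranged from 0.93, without PSB-KD107 library 4, to 1.61, without vehicle library 1, and it was 0.73 ± 0.25 (SE, adjusted p = 0.745) without both libraries numbered 4.

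Its neighbor Cdkn2a (ENSMUSG00000044303, chr4:89274471-89294653, minus strand) lies 11645 bases from Cdkn2b, beyond its 3′ end, and codes for both p16 and, in another reading frame, p19ARF, which the counts do not separate. It was at 27.1, 49.3 and 51.3 CPM in vehicle and at 33.8, 81.2 and 20.8 CPM in PSB-KD107. The PSB-KD107 group held both the highest and the lowest library. For the counts of both products, the log2 fold change was 0.09 ± 0.53 (SE), with a 95% interval of -1.20 to 1.37 (edgeR, adjusted p = 0.969), and it was negative without PSB-KD107 library 2 (-0.64) or vehicle library 1 (-0.16).

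Cdkn2c (ENSMUSG00000028551, chr4:109660876-109667189, minus strand), the gene of p18, was at 35.3, 16.8 and 15 CPM in vehicle and at 23.6, 15.7 and 24.7 CPM in PSB-KD107. Vehicle library 1 was the highest, and the groups overlapped. Its log2 fold change was -0.07 ± 0.37 (SE), with a 95% interval of -0.98 to 0.84 (edgeR, adjusted p = 0.964), and it was 0.42 without vehicle library 1. The remaining INK4 gene, Cdkn2d, was at 20.2, 19.6 and 18.5 CPM in vehicle and at 20.8, 18.6 and 29.4 CPM in PSB-KD107, with a log2 fold change of 0.24 ± 0.20 (SE) (edgeR, adjusted p = 0.749). Among the 4 other genes listed as inhibitors or their partners, edgeR and DESeq2 called 0, and 1 was at an unadjusted p under 0.05. Over all genes tested, 9.4% were at such a p. That gene was the Cdk2-binding gene Cdk2ap1, at 47.4, 39.7 and 42.5 CPM in vehicle and at 33.4, 36.9 and 34.7 CPM in PSB-KD107. Cdk5rap3 had a log2 fold change of 0.17 ± 0.13 (SE).

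**Figure D3:**
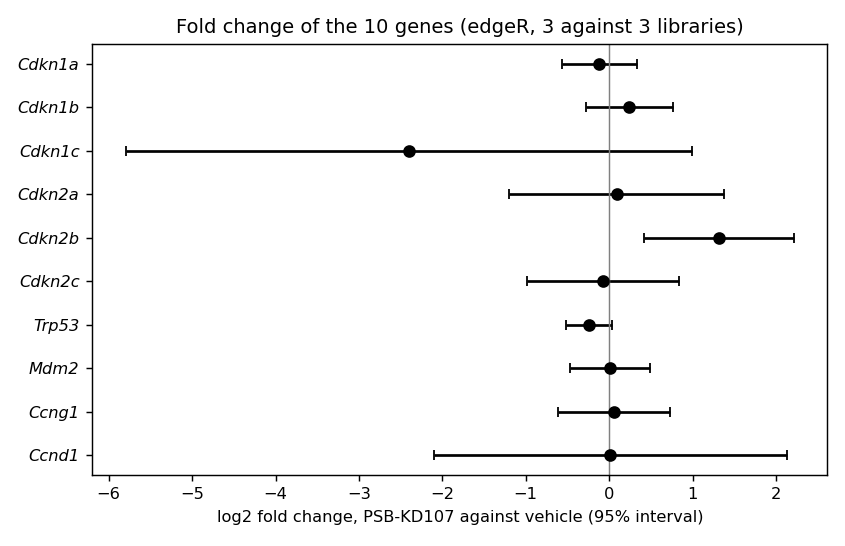
Log2 fold change of the 10 genes, PSB-KD107 against vehicle, from edgeR, with bars for the 95% interval over 3 against 3 libraries. The interval of Cdkn2b, 0.42 to 2.22, is the one that leaves out 0, and those of Cdkn1c and Ccnd1 are the widest of the 10.

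The tumor suppressor gene Trp53 (ENSMUSG00000059552, chr11:69580359-69591873, plus strand) was at 62.5, 62.6 and 65.6 CPM in vehicle and at 59.3, 54.7 and 47.0 CPM in PSB-KD107. The groups did not overlap, and PSB-KD107 was the lower, as in 6.59% of all genes tested. The means were 63.6 ± 1.76 and 53.6 ± 6.23 CPM (SD, n = 3 per group). The log2 fold change was -0.24 ± 0.11 (SE), with a 95% interval of -0.52 to 0.03, and the difference did not pass the test (edgeR, adjusted p = 0.587, and DESeq2, adjusted p = 0.554). The exact permutation test, two-sided, gave p = 0.1, again the smallest that this design allows.

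The p53 target Mdm2 (ENSMUSG00000020184, chr10:117688875-117710758, minus strand), which codes for the ubiquitin ligase of p53, was at 173, 246 and 262 CPM in vehicle and at 227, 266 and 193 CPM in PSB-KD107. The groups overlapped almost wholly. Its log2 fold change was 0.01 ± 0.20 (SE), with a 95% interval of -0.47 to 0.49 (edgeR, adjusted p = 0.988), and its sign changed with RLE factors and without single libraries.

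Ccng1 (ENSMUSG00000020326, chr11:40748552-40755311, minus strand), the gene of cyclin G1, was at 537, 916 and 941 CPM in vehicle and at 667, 1062 and 760 CPM in PSB-KD107. Library 1 was the lowest of each group, as it was in Cdkn1a. Between groups, the log2 fold change was 0.06 ± 0.28 (SE), with a 95% interval of -0.62 to 0.73 (edgeR, adjusted p = 0.961), and it was -0.17 without vehicle library 1 or without PSB-KD107 library 2. For Cdkn1a, Mdm2 and Ccng1, the intervals therefore bound a difference in either direction at less than 1 on the log2 scale, and they do not show that the levels were equal.

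Of 35 further genes listed as p53 targets, 17 were higher and 18 lower in PSB-KD107, and the median difference on the log2 scale was -0.01. edgeR called 0 of them, and DESeq2 called 1, beside 2.96% of all genes tested. Both of the 2 at an unadjusted p under 0.05 were higher. Of all genes tested, 9.4% were at such a p, and 6.47% were so and higher. Gdf15, a stress-induced cytokine gene that other pathways also induce, was the one called by DESeq2 (adjusted p = 0.0252). It was at 2.91, 5.81 and 6.82 CPM in vehicle and at 26.9, 27.5 and 6.58 CPM in PSB-KD107, so that PSB-KD107 libraries 1 and 2 were high and library 4 lay within the vehicle range. Its log2 fold change was 1.97 ± 0.61 (SE) (edgeR, adjusted p = 0.41).

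Sesn2, which codes for an inhibitor of mTORC1 signaling, was at 34.4, 38.3 and 42.9 CPM in vehicle and at 60.6, 72.7 and 45.3 CPM in PSB-KD107. The groups did not overlap, and the log2 fold change was 0.63 ± 0.19 (SE) (edgeR, adjusted p = 0.407). Phlda3, a repressor of Akt, did not overlap either, at 257, 268 and 275 CPM in vehicle and 280, 333 and 335 CPM in PSB-KD107, with a log2 fold change of 0.25 ± 0.11 (SE) (edgeR, adjusted p = 0.555). In 3 of the 35 genes, 2 higher and 1 lower, the groups did not overlap, beside 9.2% higher and 6.59% lower of all genes tested. The last of the 3, the death receptor gene Fas, was lower, at 10.4, 9.91 and 10.2 CPM against 5.15, 7.76 and 8.69 CPM, with a log2 fold change of -0.50 ± 0.23 (SE) (edgeR, adjusted p = 0.587). It lies outside the rule for named genes and was added after its values were seen, as were the apoptosis genes Bax and Bbc3, whose log2 fold changes were 0.10 ± 0.26 and -0.07 ± 0.35 (SE).

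**Figure D4:**
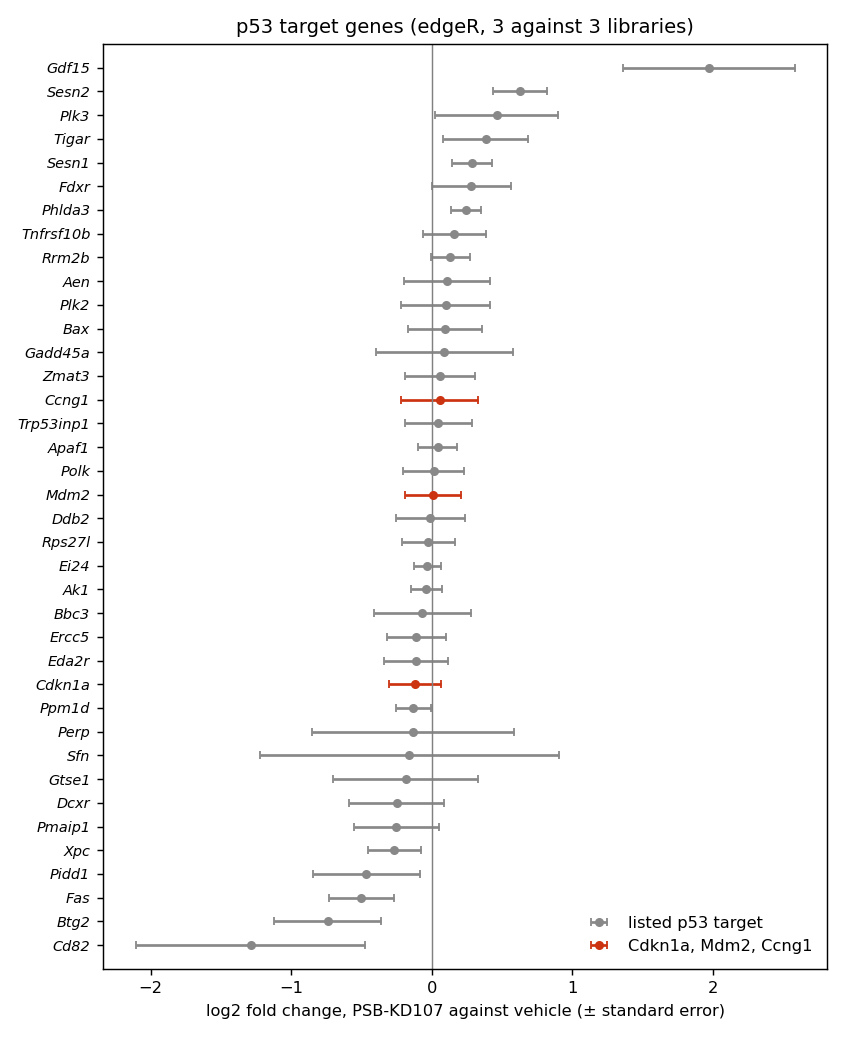
Log2 fold change, PSB-KD107 against vehicle, of Cdkn1a, Mdm2 and Ccng1 (red) and of the 35 other p53 targets (gray), from edgeR, with bars of 1 standard error over 3 against 3 libraries. The points lie on both sides of 0, and Gdf15 (1.97) and Cd82 (-1.29) are the ends of the range.

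Among 17 tested genes that regulate p53 or belong to its family, 6 were higher and 11 lower, and the median difference on the log2 scale was -0.07. edgeR and DESeq2 called 0 of them, and 1 was at an unadjusted p under 0.05, a share below the 9.4% of all genes tested. This was Atm, which codes for a kinase that activates p53 after DNA breaks, at 19.4, 21.7 and 24.6 CPM in vehicle and at 28.7, 35.8 and 39.0 CPM in PSB-KD107. The groups did not overlap, and the log2 fold change was 0.66 ± 0.16 (SE) (edgeR, adjusted p = 0.294, and DESeq2, adjusted p = 0.0507). Trp53bp1, a DNA damage adaptor gene, and Rpl11, a ribosomal protein gene whose product can bind Mdm2, had log2 fold changes of -0.41 ± 0.24 and -0.13 ± 0.09 (SE). Mdm4, the relative of Mdm2, was added after its values were seen and had a log2 fold change of 0.01 ± 0.11 (SE).

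The cyclin D1 gene Ccnd1 (ENSMUSG00000070348, chr7:144929931-144939925, minus strand), whose product drives Cdk4 and Cdk6, followed the library number more than the group. It was at 127, 46.5 and 25.7 CPM in vehicle and at 144, 35.8 and 21.0 CPM in PSB-KD107. Library 1 was high and library 4 was low in both groups, and the highest library was 6.87 times the lowest. The spread within groups was 1.31 (SD of log2 CPM), which 4% of the genes tested exceeded. Between groups, the log2 fold change was 0.01 ± 0.87 (SE), with a 95% interval of -2.11 to 2.13 (edgeR, adjusted p = 0.997). The gene overlaps Oraov1 on the opposite strand, which had a sum of 5581 counts over the 6 libraries, and since the counting by strand is not stated, a part of either count may belong to the other.

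Of the other D-type cyclins, described after their values had been seen, Ccnd3 ordered its libraries as Ccnd1 did and Ccnd2 did not. Ccnd2 was at 75.8, 166 and 169 CPM in vehicle and at 102, 263 and 109 CPM in PSB-KD107, with library 1 the lowest of each group. Ccnd3 was at 801, 661 and 607 CPM and at 684, 534 and 315 CPM, with library 1 the highest and library 4 the lowest of each.

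Of 19 tested G1 cyclins, CDKs and pocket proteins with their E2F partners, 7 were higher and 12 lower, and the median difference on the log2 scale was -0.19. edgeR called 0, DESeq2 called 1 (2.96% of all genes tested), and 1 was at an unadjusted p under 0.05 (9.4%). In 7 of the 19, 2 higher and 5 lower, the groups did not overlap, beside 9.2% higher and 6.59% lower of all genes tested. Cdk6, a kinase that p15 binds, was the gene called by DESeq2 (adjusted p = 0.00498), at 7.96, 8.62 and 6.58 CPM in vehicle and at 14.9, 12.4 and 12.7 CPM in PSB-KD107. All PSB-KD107 libraries lay above all vehicle libraries, and the log2 fold change was 0.79 ± 0.18 (SE) (edgeR, adjusted p = 0.253). The retinoblastoma gene Rb1 and its partner E2f4 were next by p, with log2 fold changes of -0.28 ± 0.13 (SE) each and no overlap, and neither was called over the 6 libraries (edgeR, adjusted p = 0.585 for both, and DESeq2, adjusted p = 0.549 and 0.55).

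In 11 tested genes of the turnover of p27 and cyclins, 1 was higher and 10 lower in PSB-KD107, where 7066 of all genes tested were higher and 7099 lower, and the median difference on the log2 scale was -0.17. edgeR and DESeq2 called 0, and 2 were at an unadjusted p under 0.05, both lower, as were 2.93% of all genes tested. Skp2, which codes for the F-box protein that brings p27 to degradation, was at 14.4, 13.7 and 15.9 CPM in vehicle and at 9.98, 10.5 and 11.5 CPM in PSB-KD107. The groups did not overlap, and the log2 fold change was -0.46 ± 0.14 (SE) (edgeR, adjusted p = 0.405, and DESeq2, adjusted p = 0.0906). Skp1a and Cul1, genes of other subunits of the same ligase, had log2 fold changes of -0.30 ± 0.12 and -0.23 ± 0.14 (SE) (edgeR, adjusted p = 0.514 and 0.676). They did not overlap between groups either. That made 3 of the 11 genes, all lower, beside 6.59% of all genes tested that were lower without overlap.

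**Figure D5:**
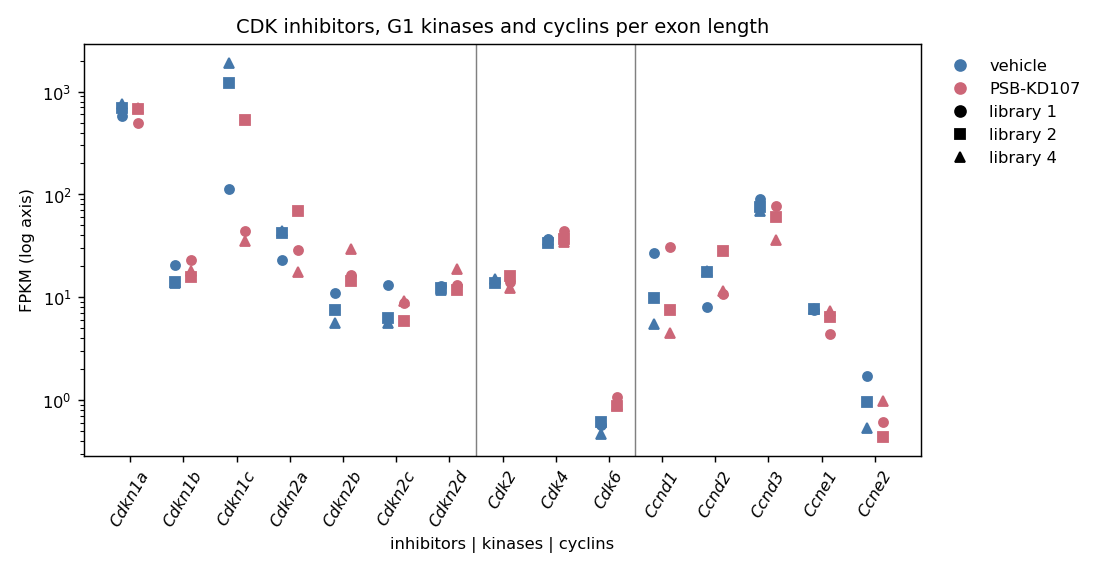
Level per exon length (FPKM, log axis) of the inhibitors, G1 kinases and cyclins, with 1 point per library, vehicle in blue and PSB-KD107 in red, and a marker shape for each library number. Cdkn1a and Cdkn1c reach the highest levels of the genes drawn, and Cdk6 lies near 1 FPKM or below in every library.

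To compare genes with each other, levels were also set per length of exon (FPKM, from the exons of GENCODE M21). In vehicle, the order of the mean levels was Cdkn1c (1079 FPKM), Cdkn1a (674), Ccng1 (227), Mdm2 (44.6), Cdkn2a (36.3), Cdkn1b (16.1), Trp53 (15.7), Ccnd1 (14.1), Cdkn2c (8.34) and Cdkn2b (8.09). The first place of Cdkn1c is not secure, as its vehicle libraries ran from 114 to 1907 FPKM and those of Cdkn1a from 579 to 756 FPKM. Cdkn1a and Ccng1 did not overlap, nor did Ccng1 and Mdm2, nor did Cdkn2a and Cdkn1b, while Mdm2 and Cdkn2a overlapped, as did each neighboring pair from Cdkn1b to Cdkn2b. In PSB-KD107 the mean of Cdkn2b was 20.2 FPKM, that of Cdkn1c was 204 FPKM with libraries from 35.4 to 533, and that of Cdkn1a was 622 FPKM.

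Genes of proliferation and of differentiation differed between libraries as well. The 18 proliferation genes summed to 419, 162 and 133 CPM in vehicle and to 250, 152 and 242 CPM in PSB-KD107. Mki67, a marker of cycling cells picked after its values were seen, was at 41.1, 6.04 and 1.05 CPM and at 14.1, 2.63 and 13.0 CPM. Vehicle library 1 and PSB-KD107 libraries 1 and 4, the libraries low in Cdkn1c, were the ones with the highest sums. Of the 18 genes, 3 were higher and 15 lower, where 7066 of all genes tested were higher and 7099 lower. The median difference of the 18 on the log2 scale was -0.42, and edgeR, DESeq2 and the unadjusted p under 0.05 each gave 0. The lowest p values belonged to the replication helicase genes Mcm7, Mcm4 and Mcm5, with log2 fold changes of -0.47 ± 0.28, -0.39 ± 0.32 and -0.78 ± 0.76 (SE). Without vehicle library 1, which had the highest sum of all, they were -0.15, -0.03 and 0.25 in edgeR. The lower values of these 3 genes thus rested largely on that library.

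The 6 tested genes of differentiation at cell cycle exit summed to 23332 to 25334 CPM in vehicle and to 18309 to 19508 CPM in PSB-KD107. Most of each sum came from Myh3 alone, at 11842 to 18255 CPM over the libraries. Of the 6 genes, 2 were higher and 4 lower, and the median difference on the log2 scale was -0.22. At an unadjusted p under 0.05 there were 2, both lower (2.93% of all genes tested). DESeq2 called 1 lower (0.716%), the embryonic myosin gene Myh3 (log2 fold change in edgeR -0.44 ± 0.17 (SE), edgeR adjusted p = 0.493, DESeq2 adjusted p = 0.0308). Myog, which codes for the differentiation factor myogenin, was at 2042, 2203 and 2158 CPM and at 1175, 1726 and 1661 CPM, without overlap, and had a log2 fold change of -0.49 ± 0.18 (SE) (edgeR, adjusted p = 0.469). Myod1 had a log2 fold change of -0.59 ± 0.35 (SE). These levels moved with the libraries and in part with the groups, and their part in the values of Cdkn1c, Ccnd1 and Cdkn2b was not tested.

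The genes whose log2 CPM followed Cdkn2b most closely over the 6 libraries were Plxdc1 (Pearson r = 0.998), App (r = 0.996) and Cds2 (r = 0.994). App, the gene of the amyloid precursor protein, was at 232, 193 and 149 CPM in vehicle and at 344, 294 and 517 CPM in PSB-KD107, so that library 4 was its lowest vehicle and its highest PSB-KD107 library too. Plxdc1 lay near the floor, between 0.0310 and 0.77 CPM. With 6 libraries and 14165 genes compared, and with all libraries scaled by the same factors, these values of r are a description. Among the other members, r with Cdkn2b ran from -0.92 for Trp53 to 0.59 for Cdkn1b, and that with Cdkn2a, its neighbor on the chromosome, was -0.52.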

How the data were processed

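The authors sequenced polyadenylated RNA of 6 libraries in paired-end mode (100 bp, directional kit), aligned the reads to mm10 with STAR 2.3.0 and deposited raw counts per gene. The counting program, annotation and strand setting are not given in the sources used here. The members and all gene lists were chosen with earlier results of these data known.

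In R 4.3.3, genes were filtered with filterByExpr, scaled by TMM and compared with edgeR 4.0.16 (quasi-likelihood test, Benjamini-Hochberg adjustment, threshold 0.05) over all genes. limma 3.58.1 and DESeq2 1.42.0, RLE factors, no filter, a replicate block and single libraries left out were alternatives. Columns were matched to groups by name, and library 4 of each group matched no sample number. P-values measure the spread between these libraries, since shared mice are not stated. Named genes were the members, the 3 genes of each list with the smallest p, and the 3 most correlated with the member of smallest p. Coordinates and exon lengths came from GENCODE M21, promoters from RefSeq. Scripts were tested on simulated counts, 3 libraries against 3, with 100 genes changed 4-fold and 100 changed 2-fold. At an adjusted p under 0.05, edgeR recovered 59 and 12 of these, with 4 false calls. DESeq2 recovered 81 and 35, with 47 false calls, and limma-voom 60 and 11, with 5. A gene not called by edgeR may therefore still differ, and a part of the DESeq2 calls may be false. CPM for likeness had an offset of 0.1.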

Additional observations from a re-analysis of the deposited data

How the results depend on the processing

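Over the whole table, edgeR called 0 genes in the reported test, 8 with no filter on low counts, 2456 with a replicate block on 4 libraries (numbers 1 and 2), and DESeq2 called 410. At an unadjusted p under 0.05 there were 1331 genes, and 4410 with the block on 4 libraries. Without 1 library, edgeR called 0 in each of the 6 fits, with 677 to 1783 genes at an unadjusted p under 0.05, and DESeq2 called 0 to 2 members and 160 to 768 genes (599, 178 and 160 without vehicle libraries 1, 2 and 4, and 283, 768 and 674 without PSB-KD107 libraries 1, 2 and 4). The pairing by numbers shared by the table and the sample records could be fitted on 4 libraries, and that by the table's own numbers on all 6. The correlation of deviations from the group means over 14165 genes was 0.63 between the libraries 1, 0.52 between the libraries 2 and -0.13 between the libraries 4, against -0.70 to 0.64 for different numbers, so the numbers were not taken to pair the libraries. The same 4 libraries with no block gave 0 genes, and 924 at an unadjusted p under 0.05. The block over all 6 libraries gave 0 and 1726. The larger counts thus came with the block and the 4 libraries together, and with neither alone.

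The members called with the block on 4 libraries were Cdkn1c (-1.28, adjusted p = 0.000192), Cdkn2a (0.52, 0.014), Cdkn2b (0.75, 0.00706) and Ccng1 (0.26, 0.0442), and Rb1 (-0.33, 0.0186) and E2f4 (-0.29, 0.0253) were called there too (edgeR). For the 10 members, the adjusted count was 0, and 1 with DESeq2 and 4 with the block on 4 libraries, and the unadjusted count was 1, then 7 with the block on 4 libraries, 2 with the block on all 6, and 1 to 2 without 1 library. With the replicate block on 4 libraries, the adjusted counts were 12 for the other p53 targets, 1 for p53 regulators, 9 for G1 genes, 2 for p27 and cyclin turnover, 10 for proliferation and 5 for cell cycle exit, and the unadjusted counts were 20, 3, 11, 4, 13 and 6. With the block on all 6 libraries, the unadjusted counts were 0 for the other CDK inhibitors, 2 for p53 regulators, 4 for G1 genes and 1 for p27 and cyclin turnover. The same 4 libraries with no replicate block, chosen after seeing the data, gave 0 for the other CDK inhibitors, 3 for G1 genes, 1 for p27 and cyclin turnover and 0 for cell cycle exit. DESeq2 called 1 gene each of the other p53 targets, G1 genes and cell cycle exit, and gave an unadjusted count of 2 for G1 genes. Without 1 library, edgeR's adjusted counts were 0 in every list and the unadjusted counts were 0 to 1 for the other CDK inhibitors, 1 to 6 for the other p53 targets, 1 to 2 for p53 regulators, 1 to 3 for G1 genes, 0 to 2 for p27 and cyclin turnover, 0 to 1 for proliferation and 0 to 3 for cell cycle exit.

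Of 217 log2 fold changes of single genes under other settings, 186 kept their sign and side of the threshold, 20 kept their sign and passed it, and 11 changed sign: Cdkn2a (-0.069 with the block on 6 libraries, -0.10 with limma-voom), Cdkn2c (0.0065 and 0.0080), Ccnd1 (-0.16 and -0.14, and -0.081 with the block on 4), Mdm2 (-0.0032 with RLE factors, -0.0029 with DESeq2) and Cdkn2d (-0.015 with the block on 4 libraries, -0.014 with these 4 and no block). Of 246 with 1 library left out, 26 changed sign. These ranges, first in edgeR and then in DESeq2, were -0.22 to 0.0069 and -0.23 to 0.012 for Cdkn1a, -0.64 to 0.43 and -0.65 to 0.42 for Cdkn2a, -0.29 to 0.42 and -0.30 to 0.41 for Cdkn2c (0.11 without PSB-KD107 library 2), -0.16 to 0.13 and -0.17 to 0.12 for Mdm2 (-0.12 without PSB-KD107 library 2), -0.17 to 0.19 and -0.18 to 0.18 for Ccng1, and -1.25 to 0.89 and -1.24 to 0.88 for Ccnd1 (-0.20 and -0.38 without vehicle libraries 2 and 4), and for Mcm5 -1.39 to 0.25 in edgeR. DESeq2 without single libraries was added after seeing the data.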
